A study of Sus scrofa with 4 samples.

Results

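Interferon-stimulated genes were examined in infarcted minipig heart with and without myoblast transplantation. The set holds 9 genes: ISG15, MX1, MX2, OAS1, IRF1, IRF7, RSAD2, USP18 and IFIT2. Members were taken by the gene symbol of the array annotation. All 9 were found, on 16 probe sets, out of 6765 genes with a probe set of their own and 24123 probe sets on the array. No probe set annotated to several genes carried one of these symbols.

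Heart RNA was measured on 4 Affymetrix Porcine Genome Arrays, with 1 array for each group. The groups were the infarct zone after myoblast transplantation, the infarct zone of control hearts, the border zone after myoblast transplantation and the border zone of control hearts. The minipigs were female Chinese Bama animals of 4 months, and MI was made by permanent ligation of the left circumflex coronary artery. Human skeletal myoblasts in DMEM were injected into the myocardium of the myoblast group. The labels call the control tissue untreated, while the paper names the control treatment group as the control of its microarray comparison. By the methods that group received DMEM alone and, like the myoblast group, cyclosporin A. The methods also describe an MI group with neither. If the word untreated meant that MI group after all, the ratios would hold a difference in cyclosporin A and in injection as well. The number of minipigs per array and the time of sampling are given neither by the labels nor by the methods.

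Type I interferons are cytokines that bind receptors at the cell surface and activate the kinases JAK1 and TYK2, which switch on transcription factors in the cytoplasm. These, with interferon regulatory factors, turn on a large group of genes that slow viral replication and shape immune signalling. In infarcted heart, nucleic acids from dying cells that are taken up by macrophages are a known trigger of this response.

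All 9 genes had a ratio of myoblast over control above 1 in the infarct zone, while in the border zone 5 lay above 1 and 4 below. On the probe set of highest mean signal of each gene, the log2 ratios ran from 0.32 to 1.23 in the infarct zone, with a median of 0.53, and from -0.27 to 0.31 in the border zone, with a median of 0.12. The medians over all 6765 genes were -0.0015 in the infarct zone and 0.022 in the border zone. A ratio above 1 was found for 49.8% of all genes in the infarct zone and for 52.0% in the border zone, and for 49.6% in the infarct zone among the genes with a mean signal above the array medians. Over probe sets, 11 of 16 lay above 1 in the infarct zone (50.7% of all probe sets) and 7 in the border zone (50.2%). On its brightest probe set RSAD2 alone passed the 2-fold threshold of the methods in the infarct zone, and no member passed it in the border zone. With 1 array per group no spread between minipigs can be estimated, so these are differences between arrays and no test stands behind them.

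ISG15 is a ubiquitin-like protein that is attached to other proteins after interferon signalling. Its signal was 994 on the myoblast array against 583 on the control array of the infarct zone, and 982 against 1056 in the border zone. The control infarct array stood apart from the other 3 arrays, which lay within 0.11 of each other on the log2 scale. The ratio of myoblast over control was 1.70 in the infarct zone and 0.930 in the border zone.

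USP18, the protease that takes ISG15 off its targets and also damps the type I interferon receptor, showed a smaller difference. It had a signal of 605.5 on the myoblast array against 448 on the control array of the infarct zone, and 800.2 against 656 in the border zone. Both zones had a ratio above 1, at 1.35 and 1.22.

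RSAD2 (viperin), an antiviral radical SAM enzyme, had the largest ratio of the set. Its brightest probe set gave 543 on the myoblast array against 231 on the control array of the infarct zone, and 434 against 525 in the border zone. The ratio was 2.35 in the infarct zone and 0.828 in the border zone. RSAD2 was also measured by a set of array control probe sets for the 3′ end, the middle and the 5′ end of the transcript. The 3′ probe set gave 119 against 54.2 in the infarct zone, a ratio of 2.20, and 108 against 113 in the border zone, a ratio of 0.952. These signals lay below the array medians, and with 32 units added the infarct zone log2 ratio was 0.81, under 2-fold. The middle and 5′ probe sets were dimmer still, at 6.12 to 34.5 units. They had ratios of 0.783 and 1.65 in the infarct zone and of 0.302 and 0.277 in the border zone. The brighter pair of RSAD2 probe sets thus had like ratios in each zone. Both were designed from the same sequence, so they are not separate evidence. The dimmer pair had like ratios in the border zone and lay on opposite sides of 1 in the infarct zone.

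MX1 and MX2 are dynamin-like GTPases that trap viral particles, and their genes lie next to each other in the pig genome assembly Sscrofa11.1. MX1 gave 748 on the myoblast array against 516 on the control array of the infarct zone, and 756 against 772 in the border zone. As for ISG15, the control infarct array was low and the other 3 were close together, within 0.047 on the log2 scale. MX2 was dimmer and followed another order, with 237 against 164 in the infarct zone and 149 against 137 in the border zone. The myoblast infarct array was the highest for MX2, and the control border array the lowest. Its ratio of 1.44 in the infarct zone was near that of MX1 (1.45). A second MX2 probe set, designed from the same accession, gave 5.84 against 36.8 in the infarct zone and 32.2 against 8.24 in the border zone. All of these signals lay far below the array medians of 137 to 142 units, and their ratios of 0.159 and 3.90 were turned the other way from those of the brighter probe set in the infarct zone.

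OAS1 makes the oligoadenylates that activate RNase L, and its neighbour in the assembly is OAS2. It had a signal of 572 on the myoblast array against 446 on the control array of the infarct zone, and 612 against 632 in the border zone. The ratio was 1.28 in the infarct zone and 0.968 in the border zone.

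IFIT2, an RNA-binding protein with tetratricopeptide repeats, was measured by 3 probe sets that differed from each other. The brightest gave 498 on the myoblast array against 331 on the control array of the infarct zone, and 496 against 433 in the border zone, with log2 ratios of 0.59 and 0.20. The next, also above the array medians, gave 291 against 321 in the infarct zone and 364 against 433 in the border zone, with ratios of 0.908 and 0.840. The dimmest had ratios of 0.779 and 0.737. The higher IFIT2 signal with myoblasts in the infarct zone therefore rests on a single probe set.

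IRF1 and IRF7 are transcription factors of the pathway. IRF1 is induced mainly by interferon gamma, and IRF7 drives the production of type I interferons. IRF1 had a signal of 368 on the myoblast array against 295 on the control array of the infarct zone, and 455 against 368 in the border zone. Its ratios, 1.25 and 1.24, were the same size in both zones. IRF7 gave 79.2 against 61.1 in the infarct zone and 115 against 103 in the border zone, all below the array medians, with ratios of 1.30 and 1.12. Its other probe set read 1.32 to 3.55 units and carries no usable ratio.

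**Figure D1:**
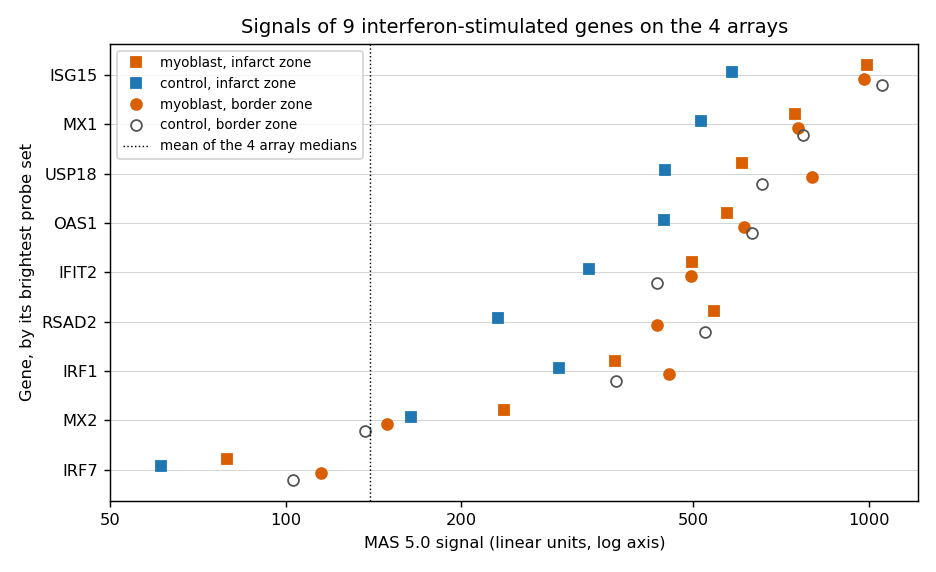
MAS 5.0 signals (x axis, linear units on a log axis) of the 9 interferon-stimulated genes (y axis, each by its brightest probe set) on the 4 arrays. The control infarct array (blue squares) was the lowest for 8 of the 9 genes, MX2 being the exception.

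Few members passed 2-fold, as few genes did. In the infarct zone 1 of 9 genes was at least 2-fold higher, against 6.50% of all genes, and none was at least 2-fold lower, against 5.78%. Of the 8 members with a mean signal above the array medians 1 was at least 2-fold higher, against 2.15% of such genes. In the border zone no member was at least 2-fold higher or lower, against 6.42% and 5.75% of all genes. Counted over probe sets, 2 of 16 were at least 2-fold higher in the infarct zone (10.5% of all probe sets) and 1 was at least 2-fold lower (9.58%). In the border zone 1 of 16 was at least 2-fold higher (9.95%) and 2 were at least 2-fold lower (10.4%). The probe sets at least 2-fold lower in the infarct zone, or 2-fold apart in the border zone, were the dim ones of MX2 and RSAD2. With all probe sets of a gene averaged, the log2 ratio of RSAD2 in the infarct zone was 0.68, under 2-fold, that of MX2 was -1.06 and that of IRF7 -0.090, leaving 7 of 9 genes above 0.

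Single genes of like signal give a scale for these ratios. Among 2165 genes with a mean signal from 256 to 1024 units, the middle 95% of log2 ratios ran from -0.86 to 0.92 in the infarct zone. RSAD2, at 1.23, lay above this range, and 1.34% of these genes had a ratio as high. ISG15, at 0.77, lay inside it, with 4.06% as high. For IFIT2 the share was 7.99%, for MX1 9.75%, for USP18 13.9%, for OAS1 18.1% and for IRF1 20.6%. MX2 and IRF7 were dimmer than this range of signals.

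Whether the difference was confined to the infarct zone was read from both ratios and from their difference. RSAD2 was the 1 gene of 9 that was at least 2-fold higher in the infarct zone and under 2-fold either way in the border zone, a pattern held by 3.68% of all genes. All 9 genes had the larger ratio in the infarct zone, as 49.9% of all genes did, and 49.7% of those above the array medians. With arrays centred on their medians 8 of 9 did, IRF1 turning to -0.027, and with all probe sets averaged 7 of 9 did, MX2 turning to -2.10 and IRF7 to -0.17. The log2 ratio of the infarct zone exceeded that of the border zone by 1.51 for RSAD2, 0.87 for ISG15, 0.57 for MX1, 0.41 for OAS1 and MX2, and 0.39 for IFIT2. It did so by 0.21 for IRF7, 0.15 for USP18 and 0.015 for IRF1. For IRF1 and USP18 the ratio was much alike in both zones, and for ISG15, MX1, OAS1 and RSAD2 it was on opposite sides of 1. The border zone ratios of MX1 (0.978) and OAS1 (0.968) were close to 1. The difference between zones was not tested, since each ratio comes from 1 pair of arrays.

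**Figure D2:**
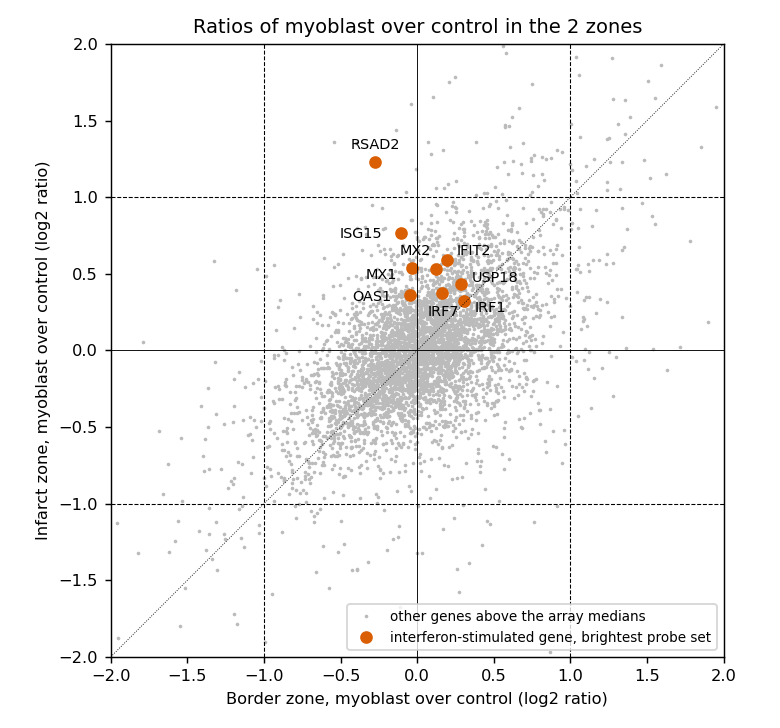
Log2 ratio of myoblast over control in the infarct zone (y axis) and the border zone (x axis). Orange points are the 9 interferon-stimulated genes, grey points the other genes above the array medians within 2 log2 units, dashed lines mark 2-fold and the dotted line equal ratios, and all 9 genes lie above 0 in the infarct zone with RSAD2 alone past 2-fold.

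The 4 arrays were then compared by zone within each treatment. With myoblasts 4 of 9 genes were higher and 5 lower in the infarct zone than in the border zone. Of all 6765 genes, 3686 were higher and 3078 lower. The median log2 difference was -0.015, against 0.039 over all genes. In control hearts 8 of 9 were lower in the infarct zone, as were 3065 of all 6765 genes. The median was -0.55, against 0.031 over all genes. The infarct zone signal of RSAD2 was 1.25 times that of the border zone with myoblasts and 0.440 times in control hearts. For ISG15 it was 1.01 times with myoblasts and 0.552 times in control hearts, for MX1 0.990 and 0.668 times, and for OAS1 0.935 and 0.705 times. IFIT2 had nearly equal signals of 498 and 496 in the infarct and border zones with myoblasts, and 0.766 times the border zone signal in the infarct zone of control hearts. For USP18 the values were 0.757 times with myoblasts and 0.682 times in control hearts, for IRF1 0.809 and 0.800 times, and for IRF7 0.688 and 0.594 times, so that these 3 genes were lower in the infarct zone of both treatments. Among the 2165 genes of like signal, 0.185% had a control difference as low as that of RSAD2 and 0.554% as low as that of ISG15. For MX1 the share was 1.62%, for USP18 1.85%, for OAS1 2.91%, for IFIT2 6.19% and for IRF1 8.82%.

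The control infarct array was the lowest of the 4 for 8 of 9 genes, each on its brightest probe set. The same was so for 24.7% of all genes and 24.5% of the genes above the array medians. For 7 of the 9 the control infarct array lay below the other 3 by more than those 3 differed among themselves. The shares were 6.24% of all genes and 5.11% of those above the array medians. The exceptions among the 9 were MX2 and IRF7. Over probe sets, the control infarct array was the lowest for 10 of 16 (26.2% of all probe sets). It lay below the other 3 by more than their range for 8 of 16 (7.51%). The myoblast infarct array and the control border array, set side by side, had a median log2 difference of -0.047 over the 9 genes, with a range from -0.38 to 0.79, against 0.030 over all genes. The ratios in the infarct zone and the zone difference in control hearts share the control infarct array, so they are not separate evidence. With 1 array per group, a feature of the infarct zone in control hearts and one of that single array or its minipig cannot be told apart.

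**Figure D3:**
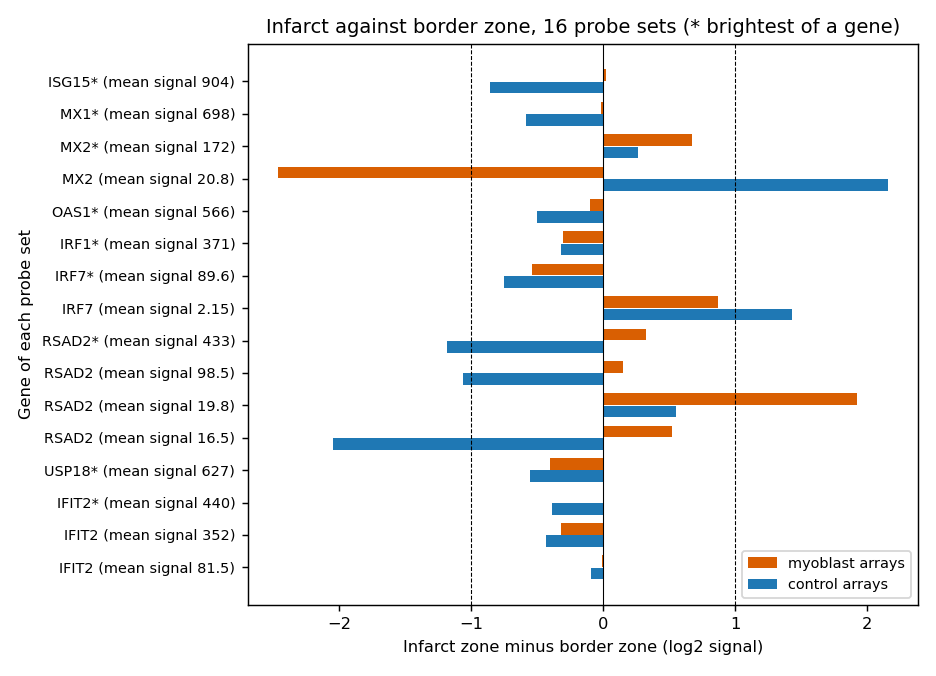
Difference between the infarct and border zones (x axis, log2 signal, dashed lines at 2-fold) on the myoblast arrays (orange) and the control arrays (blue), for each of the 16 probe sets (y axis, an asterisk marks the brightest of a gene). Control bars run to the left for 8 of the 9 brightest probe sets, and the dim probe sets of MX2 and RSAD2 run farthest, with the dim MX2 probe set at -2.46 on the myoblast arrays and 2.16 on the control arrays.

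The summed signal of heart muscle markers was highest on the same control infarct array. All 8 measured cardiomyocyte markers of 10 listed were above the median of every array, and their summed signal was 167738 on the myoblast array against 217571 on the control array of the infarct zone, and 160469 against 190449 in the border zone. MYH7, the slow myosin heavy chain, had 26177 against 34384 in the infarct zone and 27731 against 28123 in the border zone. RYR2, the calcium release channel, was the 1 marker of the 8 that was higher with myoblasts in the infarct zone, at 2837 against 2510, with 2051 against 2558 in the border zone. The tissue labelled as infarct was thus rich in muscle RNA. Macrophage and monocyte markers were measured for 12 of 15 listed. Their summed signal was 10810 against 7415 in the infarct zone and 8570 against 6217 in the border zone. With myoblasts 10 of them were higher in the infarct zone and 9 in the border zone. CD14, ITGAM, FCGR1A and MARCO among them lay below every array median. ITGAM and MARCO were the markers lower with myoblasts in the infarct zone, at 34.1 against 51.1 and 40.9 against 55.8. In the border zone both were higher, at 30.9 against 9.51 and 21.1 against 7.53. ITGAM encodes CD11b, and by staining the paper reports fewer CD11b-positive cells with myoblasts, a count of cells and not of RNA. Endothelial markers (6 of 6 measured) summed to 9343 against 6838 and to 7437 against 7234. All 6 were higher in the infarct zone and 4 in the border zone. KDR lay below every array median, and SELE read only 1.89 and 5.09 units on the control arrays of the infarct and border zones. In the infarct zone the ratios were 1.05 for VWF, 1.12 for PECAM1, 1.69 for TEK and 2.04 for CDH5. Of all genes, 49.8% were higher with myoblasts in the infarct zone and 52.0% in the border zone. Markers of T and NK cells summed to 543 against 403 and to 339 against 363 (8 of 13 measured). Only CD8A, on the myoblast infarct array, lay above an array median. Neutrophil markers summed to 241 against 83.2 and to 225 against 139 (4 of 7), and all of them lay below every array median. With myoblasts 3 of them were higher in the infarct zone and 2 in the border zone. S100A8 was lower in the infarct zone, at 43.6 against 56.7. JCHAIN, the joining chain of plasma cell antibodies, had 3828 against 648 in the infarct zone and 1245 against 775 in the border zone. CD79B, the other measured B cell marker of 7 listed, lay between 3.35 and 42.8 units. Of 9 markers of dendritic cells, including the plasmacytoid kind that makes most interferon alpha, the 2 measured were TCF4 and CCR7, and both lay below every array median. Of 13 markers of skeletal muscle and myoblasts 7 were measured, and in each zone 2 of them were higher with myoblasts. Their summed signal, 22415 against 27631 in the infarct zone and 19711 against 23636 in the border zone, was nearly all that of CKM, which heart muscle also expresses, and the other 6 lay below every array median. MYOD1 and MYF5, which define myoblasts, read 2.18 to 7.64 units with myoblasts against 17.5 to 45.3 in controls, on an array of pig probes. MYH2 (ratios of 8.10 in the infarct zone and 0.742 in the border zone), TNNT3 (6.85 and 0.120), TNNI2 (0.0920 and 3.19) and MYF6 (log2 ratios of -0.82 and 0.26) differed in direction between the zones. The part of any of these cells in the signals of the interferon-stimulated genes was not tested, and in bulk tissue a change in cell number and a change in RNA per cell cannot be told apart.

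The rest of the interferon pathway was read from a list of 97 genes, of which 46 were measured. Over these 46 genes the median log2 ratio was 0.27 in the infarct zone and 0.065 in the border zone, beside -0.0015 and 0.022 over all genes. In the infarct zone 35 had a ratio above 1 and 11 below, and in the border zone 28 and 18. Of all genes, 49.8% and 52.0% had a ratio above 1 in the infarct and border zones. At 2-fold, 3 were higher and 1 was lower in the infarct zone, and 2 were higher and 1 was lower in the border zone, to be read against the 5.75% to 6.50% of all genes given above. Of the 46, 28 had the larger ratio in the infarct zone, against 49.9% of all genes. The control infarct array was the lowest for 20 of them, against 24.7% of all genes.

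The ligands had low signals. IFNG had signals of 11.6 against 5.24 in the infarct zone and 8.89 against 14.9 in the border zone, and IFNB1 lay between 9.92 and 20.9 units. IFNA1 had 67.2 on the myoblast array against 158 on the control array of the infarct zone, and 106 against 78.2 in the border zone, so that its ratio of 0.426 in the infarct zone was opposite to that of the 9 genes. Interferon alpha genes form a family of close copies, and the probe set may read several of them. Receptors were brighter. IFNAR1, a chain of the type I receptor, had ratios of 0.978 and 1.34, IFNAR2, its partner, 1.02 and 1.05, and IFNGR1, of the interferon gamma receptor, 1.12 and 1.30 in the infarct and border zones.

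Among the signalling genes the median log2 ratio was 0.20 in the infarct zone and 0.063 in the border zone (12 genes). JAK1 had ratios of 1.19 and 1.28 in the infarct and border zones, and STAT2 of 0.931 and 1.15. IRF9, a DNA-binding factor of interferon-responsive promoters, had log2 ratios of 0.46 and 0.58. IRF8, a factor of myeloid cells, had 525 against 284 in the infarct zone and 420 against 238 in the border zone. SOCS1, a feedback inhibitor of JAK kinases, gave 137 on the myoblast array against 8.34 on the control array of the infarct zone, and 111 against 137 in the border zone. All 4 of its signals lay below the array medians, so its infarct zone ratio of 16.5 stands over a very dim control value.

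The 4 measured sensors of foreign or misplaced nucleic acid had ratios above 1 in the infarct zone. DDX58 (RIG-I), a sensor of RNA, had 469 on the myoblast array against 292 on the control array of the infarct zone, and 385 against 458 in the border zone. Its adaptor MAVS had 297 against 180 and 207 against 207. For both genes the control infarct array was the lowest, as for 8 of the 9 members and 20 of the 46 pathway genes. ZBP1 had ratios of 1.58 and 1.05 at signals below the array medians, and TBK1, the kinase that activates IRF3, 1.04 and 1.15.

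Among 23 other effectors the median log2 ratio was 0.31 in the infarct zone and 0.065 in the border zone. In the infarct zone 17 had a ratio above 1 and 6 below, and in the border zone 14 and 9, against 49.8% and 52.0% of all genes above 1. The control infarct array was the lowest for 10 of the 23, against 24.7% of all genes. IFI30, a thiol reductase of lysosomes that antigen-presenting cells use, was the only effector past 2-fold in both zones, with 1433 on the myoblast array against 551 on the control array of the infarct zone, and 1147 against 487 in the border zone. Genes close in role to the members had smaller ratios than IFI30. IFIT1 had ratios of 1.54 and 1.23 in the infarct and border zones, IFIT3 (the neighbour of IFIT2) 1.16 and 1.05, EIF2AK2 (PKR, a kinase that halts translation) 1.24 and 1.02, and IFI44L 1.10 and 1.13. XAF1, which promotes apoptosis, had 252 against 132 in the infarct zone and 273 against 234 in the border zone. PSMB8, a subunit of the immunoproteasome, had 719 against 498 and 695 against 696, so that here too the control infarct array was the low one. B2M, the light chain of MHC class I, was very bright at 22363 to 24781 units, and its ratios were 0.927 and 0.978. SP110 had ratios of 0.643 and 0.705 and was lower with myoblasts in both zones. So were TRAFD1 (0.898 and 0.820) and ISG20 (0.875 and 0.624, at signals below the array medians). GBP2 had ratios of 0.908 and 1.04. Apart from IFI30 and IFNA1, the pathway genes named here were picked after their values were seen.

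**Figure D4:**
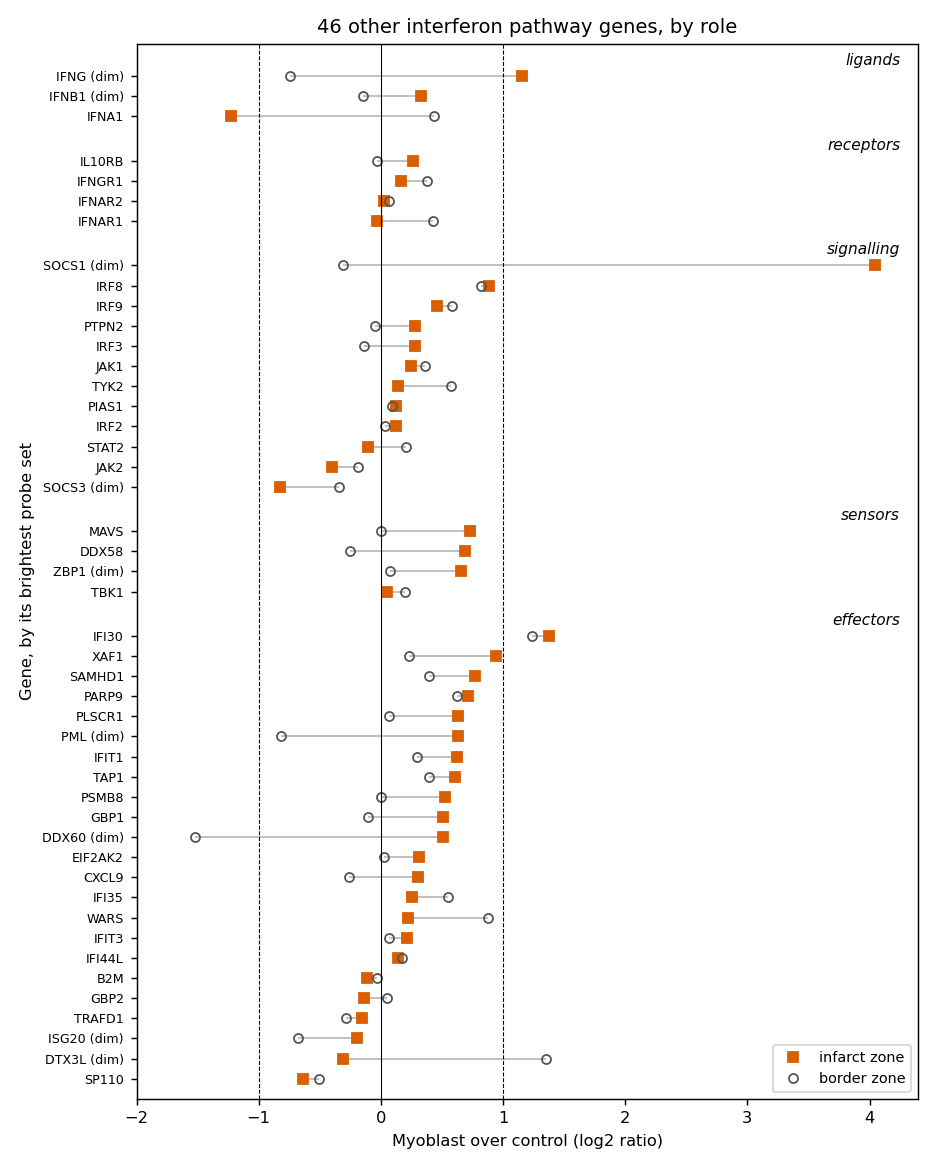
Ratio of myoblast over control on the log2 scale (x axis, dashed lines at 2-fold) of 46 other interferon pathway genes (y axis, by role, each by its brightest probe set) in the infarct zone (orange squares) and the border zone (open circles). Genes marked dim had no signal above its array median, 9 of the 46, and these include SOCS1, IFNG, DDX60 and DTX3L, the 4 genes past 2-fold beside IFI30 and IFNA1.

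The other genes with the nearest signal pattern over the 4 arrays were then picked. Their closeness to the members follows from that choice and is not a result. The mean centred log2 profile of the 8 members above the array medians was 0.18 for the myoblast infarct array, -0.42 for the control infarct array, 0.15 for the myoblast border array and 0.094 for the control border array. The 6 probe sets of other genes nearest to it by Euclidean distance, out of 10083, were those of EIF3L, ATG4C, EHMT2, EI24, FLNA and SELP, at distances from 0.048 to 0.063. EIF3L, a subunit of a translation initiation factor, had 2026 on the myoblast array against 1396 on the control array of the infarct zone, and 2010 against 1975 in the border zone. FLNA, the actin crosslinker filamin A, had 475 against 300 and 472 against 446, and SELP (P-selectin of endothelium and platelets) 189 against 118 and 186 against 177. Of the members, MX1 (0.093) and IFIT2 (0.11) lay nearest to the mean profile and RSAD2 (0.54) and MX2 (0.71) farthest. With 4 arrays the distance is a description of these values.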

How the data were processed

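RNA of heart tissue was hybridised to Affymetrix Porcine Genome Arrays, with 1 array for each of 4 groups. The deposited values are log2 signals, which the authors made with the MAS 5.0 algorithm. This method subtracts local background and scales every array to a common mean, so a ratio is relative to the whole array. Trimmed means (2% at each end) were 500.1 on all 4 arrays. The number of arrays limits the precision, and dim probe sets vary most.

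Values were used as deposited and are printed as linear signals. Gene symbols came from the platform annotation, where 10099 probe sets carry a single symbol, 198 several and 13826 none. In each zone a log2 ratio was taken as the myoblast signal minus the control signal. Genes with several probe sets were read from the brightest one by its mean over the arrays, and the threshold was 2-fold, after the methods. A gene above the array medians had a mean log2 signal over the mean of those medians. No test was run, as no group has a replicate. The 9 genes, the pathway list and the cell type markers were chosen with earlier results of these data known. The rule for naming genes took all probe sets of the 9 and the 6 nearest profiles, by Euclidean distance of centred log2 signals. It also took pathway genes past 2-fold with the higher array above its median, which were IFI30 and IFNA1. The other pathway genes named were picked after their values were seen. The counting was tested on simulated data.

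Each value was recomputed after quantile normalization, after centring the arrays on their medians, with low signals raised to the array median or to its 25th percentile, and with 32 units added. Counts were also made at 1.5-fold, over genes whose higher array lay above its median, and with all probe sets of each gene averaged. Python 3.11.15, numpy 2.4.6, pandas 2.3.3 and matplotlib 3.10.9 were used. Sequences of the probe sets were not used here.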

Additional observations from a re-analysis of the deposited data

Results flagged for a closer look

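Some probe sets had ratios of myoblast over control on opposite sides of 1 in the infarct and border zones. Each difference below is the infarct zone log2 ratio minus that of the border zone, and none was tested, since each zone has 1 array per treatment. RSAD2 was above 1 in the infarct zone and below 1 in the border zone on 3 of its 4 probe sets, with differences of 1.51 on the brightest, 1.21 on the 3′ control probe set and 2.57 on the dim 5′ one. ISG15 (0.87), MX1 (0.57) and OAS1 (0.41) were split in the same way, though the border zone ratios of MX1 (0.978) and OAS1 (0.968) were close to 1. The dim MX2 probe set (-4.62), the dimmer IRF7 probe set (-0.56), with signals of 1.32 to 3.55 units, and IFNA1 (-1.67) were split the other way. In all, 8 of the 16 probe sets had ratios on opposite sides of 1, against 39.5% of all 24123 probe sets.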

How the results depend on the processing

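With quantile normalization, centring, either floor or 32 units added, all 9 genes kept a ratio above 1 in the infarct zone and 5 in the border zone, and the control infarct array stayed the lowest for 8. At the floor of the array median this says nothing of IRF7, whose 4 signals all lie at that floor (log2 ratios of 0.049 in the infarct zone and 0.0068 in the border zone, set by the array medians). No paired analysis was possible because each group has 1 array. Averaging all probe sets of a gene left 0 members at least 2-fold higher in the infarct zone, and so 0 with that call in the infarct zone alone. It put 1 (MX2) at least 2-fold lower in the infarct zone and 1 (MX2) at least 2-fold higher in the border zone, with a median log2 ratio of 0.36 for the infarct zone, -0.032 for the border zone and 0.19 for their difference. For the other pathway genes it gave 1 higher and 2 lower in the border zone. At a 1.5-fold threshold 3 members (RSAD2, ISG15 and IFIT2) were higher in the infarct zone, all 3 in that zone alone. With low signals raised to the array median, the border zone median of the members was 0.0068, the value of a gene at the floor on both arrays, and the other pathway genes had 1 higher and 0 lower in each zone with an infarct zone median of 0.15. With 32 units added, 0 of them were lower in either zone and 1 was higher in the border zone. Where the higher array had to lie above its median, 1 was higher in each zone and 0 were lower in the border zone. Dim probe sets turned direction at a floor. At the array median the middle and 5′ RSAD2 probe sets had a border zone log2 ratio of 0.0068 each, and the dim MX2 probe set 0.049 in the infarct zone, with a difference between zones of 0.043. At the 25th percentile that MX2 probe set had -0.068 in the border zone and a difference of 0.045. Each of these values is set by the floor itself. Of the counts and medians recomputed, 87 stayed near their value and 23 did not. Of the probe set ratios, 190 stayed, 44 moved and 6 turned direction. IRF7, below the median on every array, and the dim probe sets carry the least precise values.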
